A study of Mus musculus with 3 samples.

Results

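In mouse pancreatic spheroids, 541 H3K27ac regions were at least 2 times as wide in the culture from untreated mice as in the culture from mice treated earlier with caerulein. H3K27ac is histone H3 acetylated at lysine 27. The regions were selected on the widths themselves. A region entered when 1 autosomal peak of the untreated list and 1 peak of the post-caerulein list overlapped each other by at least 1 bp and overlapped no other peak of the opposite list, and when the untreated width was at least 2 times the post-caerulein width. Of 26529 such 1-to-1 pairs, 541 met the limit, which is 2.04% (exact Clopper-Pearson 95% interval 1.87 to 2.22). This interval and those that follow treat pairs as independent and cover counting error over pairs only. The reverse limit, with the post-caerulein peak at least 2 times as wide, was met by 756 pairs (2.85%, 2.65 to 3.06), here called the mirror pairs. Because width chose the members, widths are given as a description, with no test.

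The spheroids were grown as three-dimensional cultures of pancreatic epithelial cells from C57BL/6J wild-type mice, either untreated or post caerulein-treated. Caerulein is a cholecystokinin analogue that provokes acute pancreatitis. Each condition has 1 library made with the H3K27ac antibody ab4729 (Abcam), and an input library of untreated spheroids has no peak list used here. The number of mice behind a culture, their age, the caerulein dose and the interval after it are not given in the sources used here, and all cells were cultured, so acinar, ductal and other cells of the gland were not profiled in place. With 1 library per condition no difference has a replicate check, and a difference between the conditions cannot be told apart from a difference between these 2 libraries.

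H3K27ac is laid down by the acetyltransferases CBP and p300 and is found on nucleosomes beside active promoters and enhancers. A peak is a stretch where the caller found more reads than its background, and its width depends on how far acetylated nucleosomes spread and also on how much signal a library gives. Broad H3K27ac domains are known to lie over clusters of enhancers and at genes that are strongly transcribed in a cell type.

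The list of ductal genes fixed for marker checks was covered at the ends of 29 of 31 genes in both lists, whereas 21 of 29 acinar genes were without a peak at their ends in both. Among markers of other cells, no gene end was marked in either list for 15 of 20 immune, 12 of 16 endothelial, 19 of 20 mesenchymal and 19 of 22 endocrine genes. Peaks of both conditions lay at ductal epithelial genes. Sequencing depth cannot be read from these lists, which hold no counts. Autosomal peaks numbered 36846 untreated and 37924 post-caerulein, and 72.0% of the untreated ones took part in a 1-to-1 pair.

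Some members differed in whether the peak reached a transcription start. For 11 protein-coding genes an annotated start lay inside the wide untreated peak and outside the narrow post-caerulein peak. Among them were the epithelial transcription factor genes Grhl3 and Tfap2a, Sox6, the T-box gene Tbx1, the non-muscle myosin heavy chain gene Myh9 and the interferon-induced Oas1g. The start used was not always the outermost of its gene, as at Sox6 and Tbx1. The 250 bases upstream of 6 of these starts are printed because the start itself lay under a peak in the untreated library alone. The post-caerulein peak at Sox6 still reached into the printed bases, ending 123 bp before the start. They are followed by those of Oasl2 and Zyx, whose starts lay under the peaks of both conditions. The sequences are from RefSeq on GRCm38.p6, read 5′ to 3′ along the gene's strand, and capitals mark the dinucleotide CG (CpG).
Grhl3 (chr4:135573633-135573882, minus strand): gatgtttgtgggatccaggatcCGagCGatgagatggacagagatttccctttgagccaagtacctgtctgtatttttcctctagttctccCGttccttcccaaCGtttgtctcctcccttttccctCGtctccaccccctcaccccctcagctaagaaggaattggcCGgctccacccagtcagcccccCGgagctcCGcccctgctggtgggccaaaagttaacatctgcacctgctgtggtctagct
Tfap2a (chr13:40733796-40734045, minus strand): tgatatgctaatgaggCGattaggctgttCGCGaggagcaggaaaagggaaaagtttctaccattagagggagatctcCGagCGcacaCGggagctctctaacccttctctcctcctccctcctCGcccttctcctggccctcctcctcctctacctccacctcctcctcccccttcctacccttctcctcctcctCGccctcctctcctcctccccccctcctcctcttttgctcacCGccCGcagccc
Sox6 (chr7:116031048-116031297, minus strand): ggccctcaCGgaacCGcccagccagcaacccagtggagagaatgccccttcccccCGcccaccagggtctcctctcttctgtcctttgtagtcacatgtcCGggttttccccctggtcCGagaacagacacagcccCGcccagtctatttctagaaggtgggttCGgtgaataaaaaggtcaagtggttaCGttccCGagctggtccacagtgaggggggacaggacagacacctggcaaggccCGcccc
Tbx1 (chr16:18588900-18589149, minus strand): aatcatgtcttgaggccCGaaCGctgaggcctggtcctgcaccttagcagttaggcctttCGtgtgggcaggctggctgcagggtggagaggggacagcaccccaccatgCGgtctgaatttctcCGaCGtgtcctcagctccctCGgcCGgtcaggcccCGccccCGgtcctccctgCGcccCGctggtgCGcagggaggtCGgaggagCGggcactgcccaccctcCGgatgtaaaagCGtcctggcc
Myh9 (chr15:77842176-77842425, minus strand): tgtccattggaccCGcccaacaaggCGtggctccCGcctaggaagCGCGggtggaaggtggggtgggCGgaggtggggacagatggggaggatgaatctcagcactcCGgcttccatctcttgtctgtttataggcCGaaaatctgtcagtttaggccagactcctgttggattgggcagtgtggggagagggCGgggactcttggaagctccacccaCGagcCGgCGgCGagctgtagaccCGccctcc
Oas1g (chr5:120887614-120887863, minus strand): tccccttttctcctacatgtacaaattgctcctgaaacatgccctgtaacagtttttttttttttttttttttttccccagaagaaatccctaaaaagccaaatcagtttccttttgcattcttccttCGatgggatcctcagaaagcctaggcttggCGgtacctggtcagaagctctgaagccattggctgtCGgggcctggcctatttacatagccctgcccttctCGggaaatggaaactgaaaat
Oasl2 (chr5:114896684-114896933, plus strand): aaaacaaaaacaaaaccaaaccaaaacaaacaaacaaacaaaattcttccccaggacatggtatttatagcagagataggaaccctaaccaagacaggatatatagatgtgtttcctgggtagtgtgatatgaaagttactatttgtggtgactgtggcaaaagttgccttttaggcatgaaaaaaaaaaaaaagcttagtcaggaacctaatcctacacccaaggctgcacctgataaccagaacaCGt
Zyx (chr6:42349578-42349827, plus strand): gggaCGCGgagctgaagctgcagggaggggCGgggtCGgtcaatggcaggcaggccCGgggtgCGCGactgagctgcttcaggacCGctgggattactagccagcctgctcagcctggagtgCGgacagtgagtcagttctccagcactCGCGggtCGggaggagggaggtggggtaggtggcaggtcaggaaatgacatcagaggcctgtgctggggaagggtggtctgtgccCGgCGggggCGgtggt
The printed promoters held 8 CpG at Grhl3, 10 at Tfap2a, 10 at Sox6, 17 at Tbx1, 14 at Myh9 and 4 at Oas1g, against 1 at Oasl2 and 15 at Zyx. The counts varied within both sets. The outer annotated start of Tbx1, not printed, had 10 CpG in its 250 upstream bases.

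Widths of the 541 members spanned 1461 to 66652 bp untreated (median 3810 bp) and 627 to 15237 bp after caerulein (median 1448 bp). Over all 1-to-1 pairs the medians were 2611 and 2717 bp. Members were therefore wider than the usual pair in one list and narrower than the usual pair in the other. Summed over members, H3K27ac covered 2409.8 kb in untreated and 888.1 kb in post-caerulein spheroids. The difference within a pair had a median of 2257 bp, reached 2 kb in 323 members, 5 kb in 37 and 10 kb in 5. The ratio had a median of 2.40 and reached 3 in 127 members, 5 in 17 and 10 in 2.

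The mirror pairs outnumbered the members, but no mirror peak came near the widest members. With a ratio limit of 3 in place of 2 the counts were close, at 127 members and 123 mirror pairs. The widest post-caerulein peak among mirror pairs was 14619 bp, and the largest difference was 8775 bp, against 51415 bp among members. Over all pairs the median log2 ratio of untreated to post-caerulein width was -0.03, so the ratios were centred close to equal width. The quartiles of the ratio itself were 0.864 and 1.09. Just inside the limit lay pairs at Atp2b1 (4286 and 2143 bp, untreated first), Gbp4 (2462 and 1231 bp) and Pde7b (3421 and 1710 bp). Just outside it lay pairs at Aqp4 (4580 and 2297 bp), Kif13b (2969 and 1490 bp) and Mppe1 (2734 and 1373 bp). Nothing in these values sets the inner pairs apart from the outer ones.

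**Figure D1:**
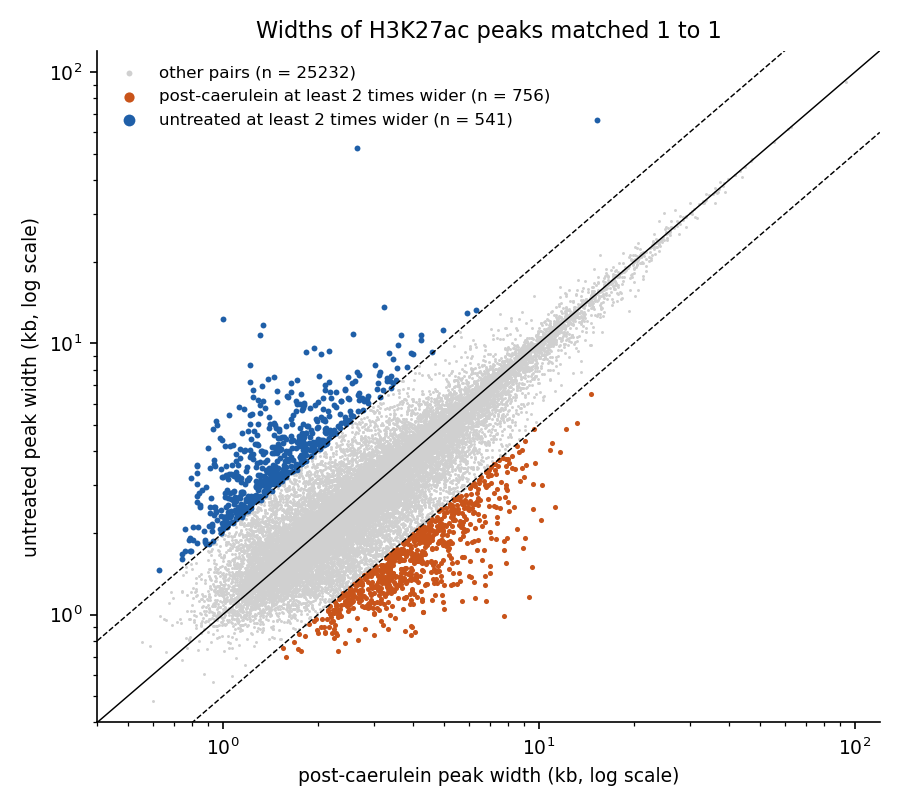
Width of the untreated peak (vertical axis, kb, log scale) against width of the post-caerulein peak (horizontal axis, kb, log scale) for each of the 26529 autosomal 1-to-1 pairs. The solid line marks equal width and the dashed lines a 2-fold difference; the 541 members lie on or above the upper dashed line, with the Cystm1 and Myh9 peaks far above the rest, and the 756 mirror pairs lie on or below the lower one.

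The post-caerulein peak usually lay within the untreated one, as in 494 members (91.3%). The added width fell mainly on 1 side, with at least 80% of it there, in 257 members (47.5%, 43.2 to 51.8), and on both sides in the others. With 95% in place of 80% the count was 100 (18.5%). Among mirror pairs the share at 80% was 44.6%. A member therefore showed a flank of acetylated chromatin on either or both sides of a core that both libraries shared.

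In most members the core that remained was a weak peak. The deposited scores, which rank peaks within 1 list only, had a median of 784.25 for members in the untreated list, at percentile 52.5 of that list. In the post-caerulein list the members' median score was 98.85, at percentile 16.6. A post-caerulein score under 100 was found for 275 members (50.8%), against 8.24% of all pairs. An untreated score under 100 was found for 7 members. Among all pairs, members made up 12.6% of those with a post-caerulein score under 100, 2.61% of those from 100 to 500, 0.661% from 500 to 1000, and 3 of 4431 pairs at 3100 or more. Width and score come from the same reads, so the scores do not stand as separate evidence.

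The 3 members at the top of the score range in the post-caerulein list were at Cystm1, Tmem167b and Zyx, named here after their values were seen. For 48 members (8.87%) both scores were at or above the median of their own list. By ratio of widths, this set was led by Cystm1 and by Ell2, a transcription elongation factor gene (6266 bp untreated, 2080 bp post-caerulein). It also held Atxn10 (7819 and 2662 bp), Sun1, a gene of the nuclear envelope (10763 and 3667 bp), and Oasl2 (7138 and 2558 bp). The nucleoside kinase gene Uck2 (7283 and 2624 bp), Tmco4 (8301 and 3019 bp) and the microtubule-associated Mtus1 (9200 and 3352 bp) were the next by ratio. At these loci the width differed between peaks that both ranked in the upper part of their lists. The highest untreated score of any member, 3132.75, was at Agps, an ether lipid synthesis gene, with widths of 6136 and 2788 bp. For 12 members the rank within the list was higher after caerulein than without treatment, Zyx and Arl4c among them.

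**Figure D2:**
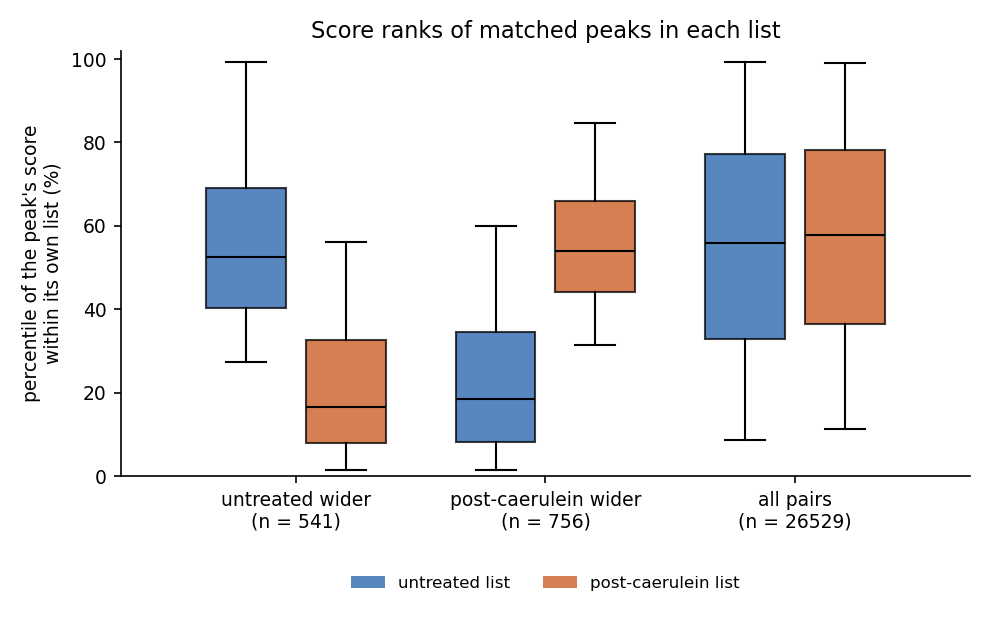
Percentile of each peak's score within its own list (vertical axis, %), for members, mirror pairs and all pairs, in the untreated (blue) and post-caerulein (orange) lists. Boxes span the quartiles with the median as a line, and whiskers the 5th to 95th percentile of pairs; members sit at medians of 52.5 (untreated) and 16.6 (post-caerulein), and mirror pairs at 18.5 and 53.9.

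The largest single difference was at Cystm1, which encodes a small, cysteine-rich membrane protein, and its neighbour Pfdn1, a prefoldin subunit gene. On chromosome 18, from 36355805 to 36422456, an untreated peak of 66652 bp faced a post-caerulein peak of 15237 bp, both with a score of 3100. Beside it, from 36341827 to 36355490, a second untreated peak of 13664 bp faced one of 3224 bp (scores 3100 and 426.76). Between the 2 post-caerulein peaks lay 61.1 kb without a peak, and this stretch held the whole of Cystm1 and an end of Pfdn1. The 2 untreated peaks covered the stretch apart from the short gap between them, from 36355490 to 36355805, inside Cystm1. Together the 2 members covered 80.3 kb in untreated spheroids and 18.5 kb in post-caerulein spheroids, the latter at the 2 edges of the domain. With peaks within 1 kb merged, neither Cystm1 member remained a 1-to-1 pair.

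The second largest was at Myh9, whose product is a motor of the actin cortex. On chromosome 15, from 77792556 to 77844881, an untreated peak of 52326 bp ran from the gene body past the annotated start, and the post-caerulein peak of 2651 bp lay 46.3 kb downstream of that start. This ratio of 19.7 was the highest of all members. The scores were low in both lists, 315.05 and 62.45. Among the 326 untreated peaks of 20 kb or more, 315.05 was the lowest score, the median was 3100, and 6 were under 1000. The post-caerulein peak was the only one in 455.35 kb between its neighbours in that list, a stretch with 2 further untreated peaks covering 4.33 kb. The width of this member therefore rests on a domain that was wide and weak.

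At 3 further members the width difference exceeded 9 kb. Near Gclc, the gene for the catalytic subunit of glutathione synthesis, an untreated peak of 12253 bp (score 3100) overlapped a post-caerulein peak of 1000 bp (score 54.66). The untreated peak lay 46513 bp from the nearest end of a protein-coding gene. It held an annotated start of the predicted gene Gm34654, which the post-caerulein peak did not. Tbx1 lay under an untreated peak of 11649 bp (chromosome 16, 18579624 to 18591272, score 3100) and a post-caerulein peak of 1335 bp (score 54.55), the only post-caerulein peak in 128.9 kb. At Arrdc4, an arrestin-domain gene, the widths were 10701 and 1310 bp, at 41123 bp from the gene. At Gclc and Tbx1 the post-caerulein score was close to the lowest of the list, 50.01, and at Arrdc4 it was 116.4. Next in rank came peaks within Eva1c (10837 and 2576 bp), within Ptprr near Taf7l2 (9633 and 1937 bp), within Wdr72 (9317 and 1831 bp) and within Tgfbr2, the type II receptor of TGF-beta (9346 and 2166 bp). Their post-caerulein scores were between 134.72 and 329.

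**Figure D3:**
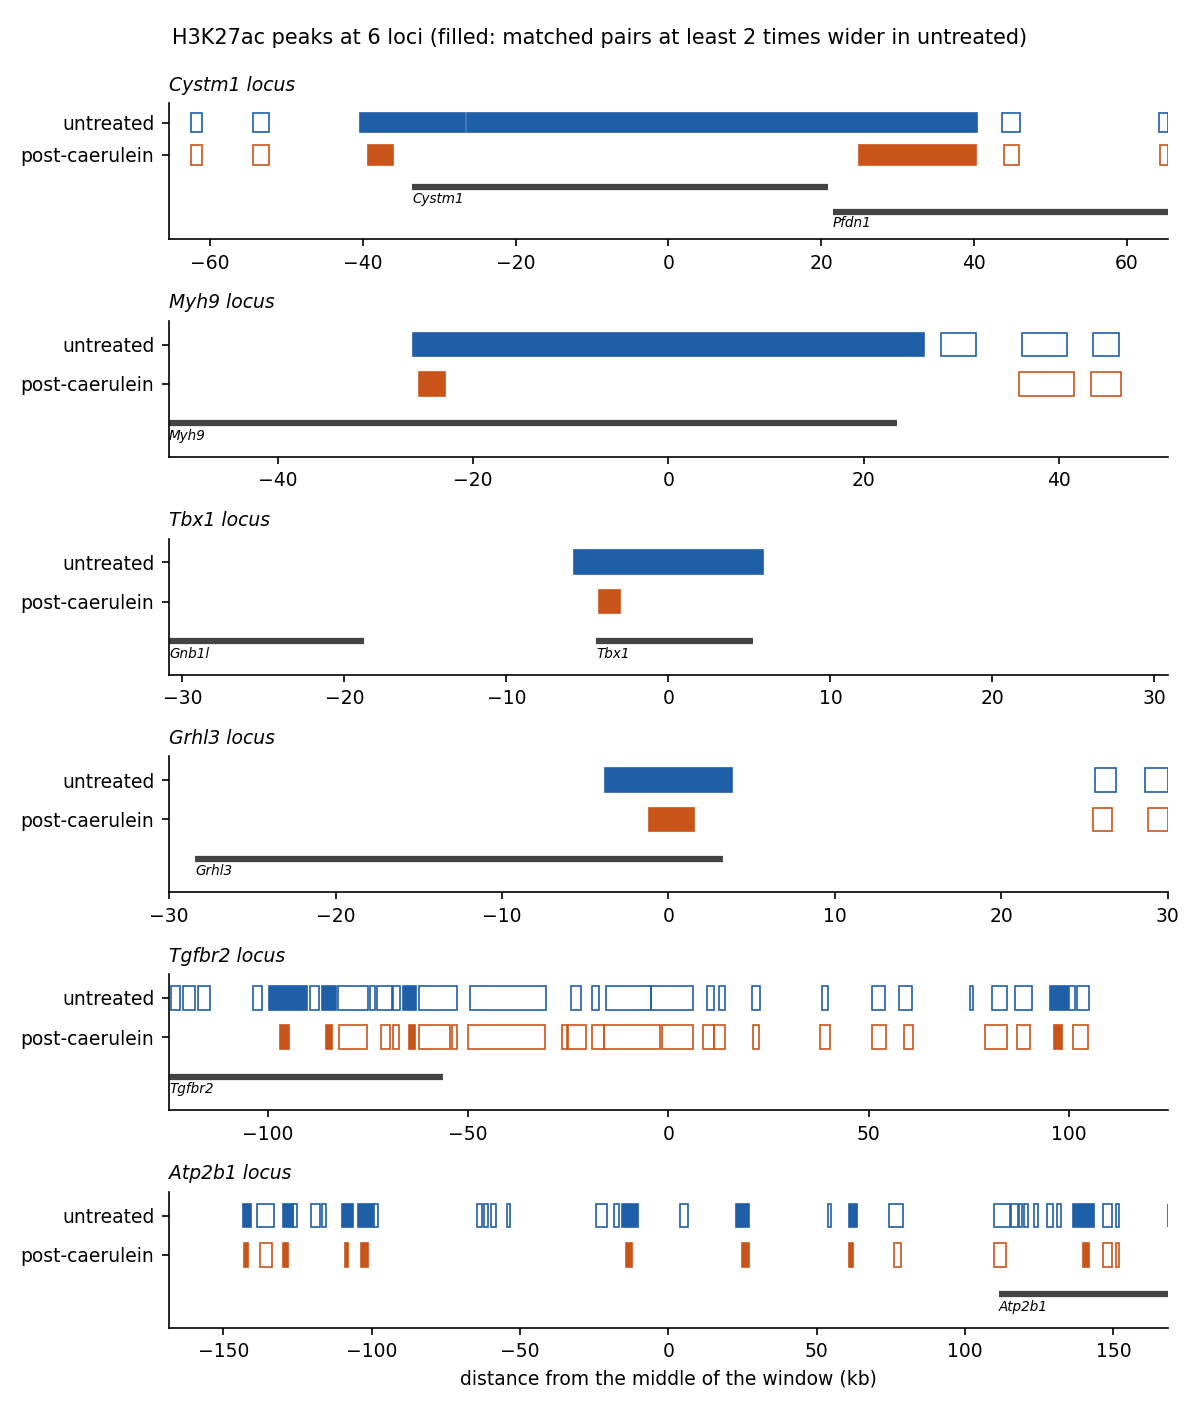
Peaks of the untreated (blue, upper row) and post-caerulein (orange, lower row) lists at 6 loci, with protein-coding genes as grey bars; the horizontal axes give the distance in kb from the middle of each window, and the scales differ. Filled boxes are members and open boxes other peaks: the post-caerulein peaks fill 15.2 of 66.7 kb and 3.22 of 13.7 kb at Cystm1, 2.65 of 52.3 kb at Myh9, and the Atp2b1 window holds a run of 8 members.

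Most members lay away from gene ends. A protein-coding gene began or ended within 1 kb of the untreated peak for 69 members (12.75%, 10.1 to 15.9), against 35.4% of all pairs. Members inside a gene but away from its ends made up 49.5%, against 35.3% of all pairs, and members outside genes 37.7%, against 29.3%. The median distance to the nearest gene end was 16994 bp for members and 7212 bp over all pairs. Since a wide peak reaches a gene end more easily, shares were set beside pairs of like untreated width. Gene ends were found at 7.20% of 125 members and 40.1% of other pairs in the class of 2 to 3 kb, at 8.67% and 42.1% from 3 to 4 kb, at 13.5% and 39.7% from 4 to 6 kb, and at 23.0% and 47.9% at 6 kb or more. Under 2 kb, where 5 of 16 members had a gene end (31.3%), the order was the opposite (22.1% of other pairs), with an interval reaching to 58.7%. The members' share was 29.2% among the 48 with both scores at or above the list median, 20.8% after merging peaks within 1 kb and 19.2% with a distance of 2.5 kb. The share over all pairs was not computed at these settings, and the 35.4% above does not serve as their reference. Mirror pairs were also mostly away from gene ends (99 of 756, from the wide peak).

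In 24 members the untreated peak covered an end of a gene that the post-caerulein peak did not, and these members involved 26 genes. The share was 4.44% of members and 0.720% of all pairs, and with the lists exchanged it was 4.63% of mirror pairs. The width rule itself leaves ends uncovered in both directions, so the count is a description. After Cystm1, Myh9 and Tbx1, the largest width differences in this set were at the adiponectin receptor gene Adipor2 (8292 and 1220 bp, scores 3100 and 64.46) and at Zyx and Epha1. Zyx encodes zyxin, a focal adhesion protein, and its widths were 12992 and 5923 bp. Both Zyx peaks were strong (3100 and 3233.06), and the part without a post-caerulein peak lay at the far end of Zyx and at the end of Epha1, an ephrin receptor gene. At Grhl3 the widths were 7648 and 2694 bp (chromosome 4, 135566506 to 135574153). Sox17, an endodermal transcription factor gene, had 6562 and 2705 bp, the sodium-proton exchanger gene Slc9a4 had 6151 and 2365 bp, and the adhesion adaptor gene Lims2 had 7818 and 3153 bp. When at least 1 kb of the untreated peak had to lie between that gene end and the post-caerulein peak, 13 of the 24 remained.

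Start sites on the strand of transcription were read from the RefSeq promoter table, which covers 17492 of 21887 protein-coding genes. A start of any transcript in that table lay in the untreated peak of 49 members (9.06%), against 30.5% of all pairs. In 17 of these members no start lay in the post-caerulein peak, and over all pairs 65 of 8090 with a start were of that kind. The width rule makes an uncovered start more likely in members, so nothing is read from these counts. At 37 protein-coding genes a start lay in a member, 26 of them with the start in both peaks and 11 with the start outside the post-caerulein peak, counting 1 start for each gene. Beside the 6 genes with printed sequences these 11 were Casq1, Tmem212, Asf1b, Fbxo48 and H2-T23. At Grhl3 the untreated peak ran from 0.521 kb before the start to 7.13 kb after it, and the post-caerulein peak began 1.75 kb and ended 4.44 kb after it. At Tfap2a, an epidermal and craniofacial regulator, the untreated peak ran from 0.37 kb before to 6.34 kb after the start (score 2821.16), and the post-caerulein one from 1.402 to 3.836 kb after it (score 373.89). In both genes the post-caerulein peak lay in the gene body beyond the promoter. At Sox6 the order was the other way. The start used there, at 116031047, lay inside the gene, which extends to 116040776, and neither peak reached that outer end. The untreated peak ran from 4.30 kb before to 0.748 kb after the start used, and the post-caerulein peak ended 123 bp before that start. Scores at Sox6 were 3100 and 71.58. A second Sox6 member, also within the gene and 37891 bp from its nearest end, had widths of 5516 and 1306 bp and scores of 3100 and 75.54.

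The distance by which the start was missed was small in some genes. It was 123 bp at Sox6, 119 bp at Oas1g and 107 bp at H2-T23, against 1751 bp at Grhl3 and 6410 bp at the Tbx1 start used here. An outer Tbx1 start in the same untreated peak was missed by 8182 bp. Such short distances lie well within the width of a peak and are not shown to be a loss of acetylation at the start itself. Oas1g and H2-T23 belong to families of closely similar genes, so the placement of reads there is uncertain. Where the start was in both peaks, the added width lay more on the downstream side at 15 genes and more on the upstream side at 11, with medians of 1.66 kb downstream and 0.82 kb upstream. Zyx (6.90 kb downstream) and Pdzrn3 (4.34 kb downstream), a ubiquitin ligase gene, lay at one end and Sun1 (6.97 kb upstream) at the other. The untreated peak at Sun1 lay wholly inside the gene, so its added width was upstream of an inner start and not of the gene.

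**Figure D4:**
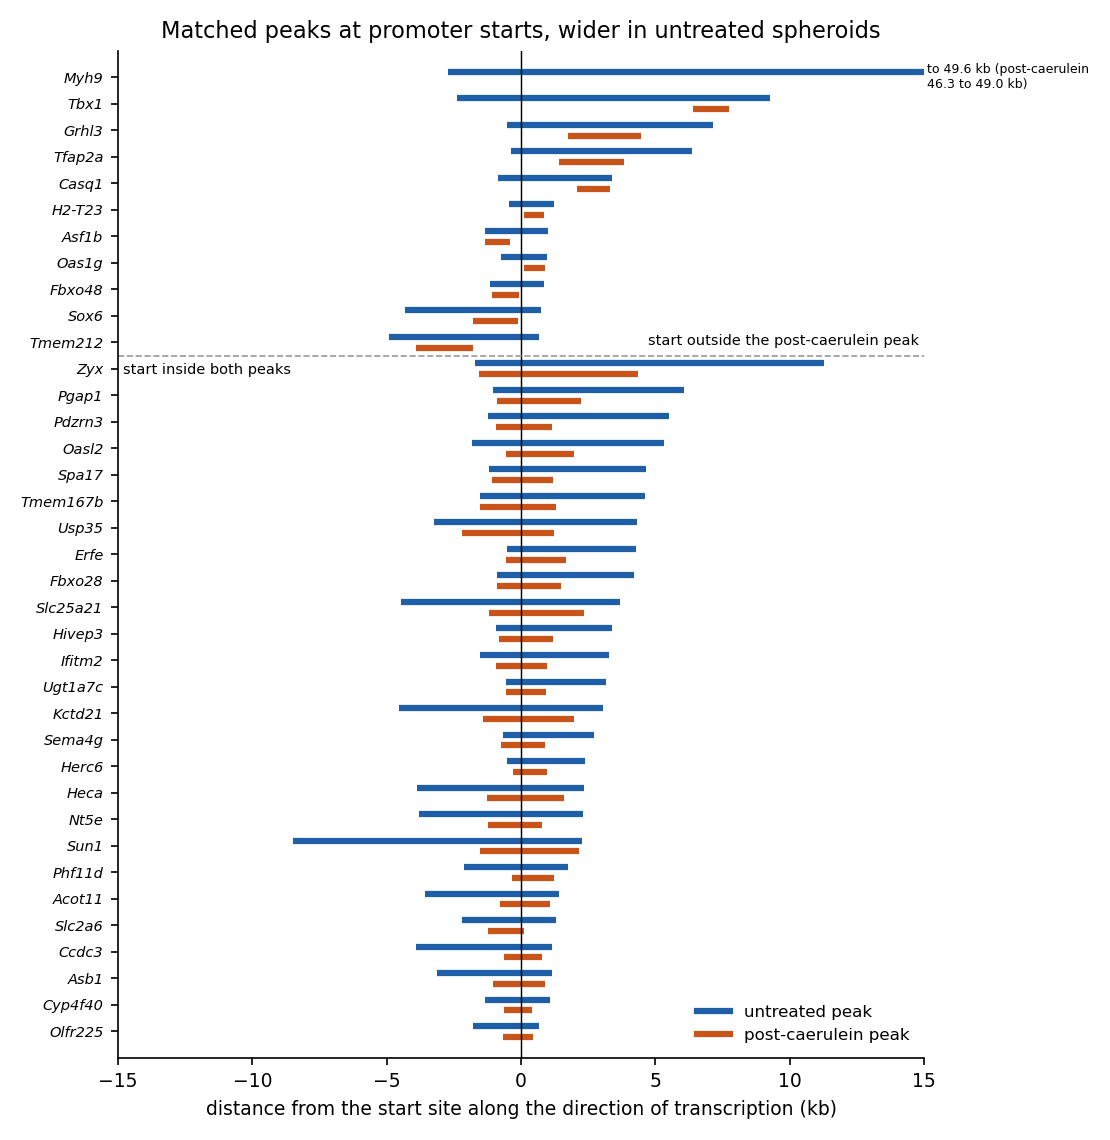
Extent of the untreated (blue) and post-caerulein (orange) peak around 1 annotated start site of each of 37 protein-coding genes in members. The horizontal axis gives the distance in kb along the direction of transcription, and the vertical line marks the start. In the upper 11 genes the orange bar does not reach the line, and in the other 26 both bars cross it. The untreated bar of Myh9 is cut at the axis, its extent being written beside it, and Usp35 and Kctd21 share 1 pair of peaks.

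Promoters under members had fewer CpG than promoters under other matched peaks. The ratio of observed to expected CpG in the 250 upstream bases had a median of 0.592 over the 37 genes, 0.757 over the 7949 genes with a start in the untreated peak of any pair, and 0.536 over all promoters. A ratio of at least 0.6 was found in 17 of the 37 (45.9%), and in 73.1% of promoters in untreated peaks of pairs. In the 11 genes whose start was left outside the post-caerulein peak the median was 0.446, and 3 reached 0.6. Over all pairs, members included, 51 genes had such a start, with a median of 0.385 and 12 (23.5%) at 0.6 or more. The 11 genes were therefore not lower in CpG than other starts left outside in this way. The GC box GGGCGG, searched on both strands, was found in 23 of 37 promoters (62.2%) and in 62.3% of those in untreated peaks of pairs, so it did not set members apart. CCAAT was found in 37.8% and 36.6%. The AP-1 motif TGANTCA was found in 1 of 37 promoters, and in 4.11% of those in pairs. The ETS motif CCGGAAG was found in 2 of 37 (5.41%), and in 1268 of 7949 of those in pairs. The forkhead motif TAAACA was found in 8.11% of promoters in members and 6.99% of those in pairs, and the nuclear receptor motif AGGTCA in 18.9% and 9.88%. A match is a description of these letters only, and counts in 37 promoters are small. A miRNA hairpin of the RefSeq table lay in 1 member and in 141 of all pairs.

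Members had untreated-only peaks, meaning peaks without any overlap in the other list, close by. Within 10 kb of the untreated peak lay at least 1 untreated-only peak for 214 members (39.6%, 35.4 to 43.8), against 3442 of the 26529 pairs (12.97%). A post-caerulein-only peak was that near for 23 members (4.25%, 2.71 to 6.31), against 17.0% of all pairs. In every class of untreated width the members had the higher share of untreated-only neighbours, from 29.6% against 11.2% in the class of 2 to 3 kb to 48.3% against 18.4% at 6 kb or more, and under 2 kb for 4 of 16 members against 693 of 7701 other pairs. The mirror pairs showed the reverse, with post-caerulein-only peaks near 43.1% and untreated-only peaks near 2.65% of them. With peaks within 1 kb merged, untreated-only peaks lay near 23.2% of members, and at 50 kb in place of 10 kb the shares were 63.8% untreated-only and 25.1% post-caerulein-only. The shares over all pairs were not computed at these settings. The neighbouring peaks come from the same 2 libraries as the widths, and the part that depth had in these shares was not tested.

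**Figure D5:**
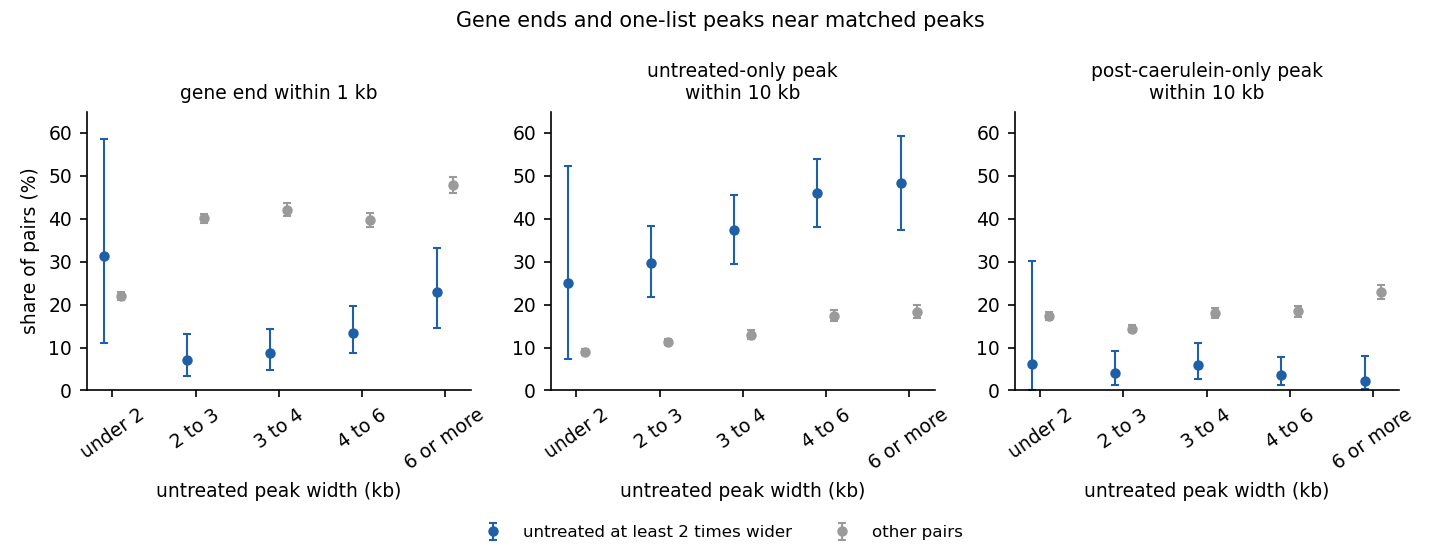
Share of pairs (vertical axes, %) with a gene end within 1 kb, an untreated-only peak within 10 kb or a post-caerulein-only peak within 10 kb, by width of the untreated peak in kb (horizontal axes), for members (blue) and other pairs (grey). Bars are exact 95% intervals over pairs, which cover counting error only; from 2 kb upward the members' shares lie below the other pairs for gene ends and post-caerulein-only peaks, and above them for untreated-only peaks.

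The wider neighbourhood leaned the same way by a smaller ratio. In the 50 kb on each side of a member, excluding that member but not other members, H3K27ac peaks covered a median of 16.6 kb in untreated and 12.1 kb in post-caerulein spheroids. Untreated cover was larger for 397 members (73.4%), against 40.6% of all pairs. The median log2 ratio of the flanks was 0.24 for members, -0.02 for all pairs and -0.37 for mirror pairs. Within 50 kb of members lay 1461 other pairs, and the untreated peak was the wider one in 883 of them (60.4%), against 44.3% of all pairs. Their median log2 ratio was 0.05, taken over pairs that exclude the members themselves and the untreated-only peaks. Near mirror pairs the untreated peak was wider in 27.2% of other pairs. Of the 1461 other pairs within 50 kb of members, 11 were mirror pairs, against 756 of all 26529 pairs (2.85%). Another member lay that near for 90 of the 541 members. The like share over all pairs was not computed, so nothing is read from that count. For those 90 the flank cover includes widths that the rule selected.

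Some members formed runs. Joining members no more than 100 kb apart gave 56 runs with 125 members, 8 of them with 3 or more members, and left 416 members single. The longest run lay next to Atp2b1, the gene of a plasma membrane calcium pump, on chromosome 10 from 98659991 to 98946568, and held 8 members in 286.6 kb. Their untreated widths ran from 2677 to 6994 bp and their post-caerulein widths from 830 to 2160 bp. All 11 matched pairs in this stretch were wider in untreated spheroids, but 8 of them are the members, which were selected for that. The stretch also held 18 untreated-only peaks and 0 post-caerulein-only peaks. Peaks covered 81.4 kb of the run in untreated and 23.5 kb in post-caerulein spheroids, the selected widths of the members included. Untreated scores of the 8 members ran from 545.42 to 3100, and post-caerulein scores from 60.36 to 341.47. The member at one edge of the run lay inside the gene body of Atp2b1, and the one at the other edge 251922 bp from the gene.

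The other runs of 3 members were smaller. Cover in each of them includes the members' own widths, which the rule selected. At Tgfbr2 the widths were 9346 and 2166 bp, 3506 and 1581 bp, and 3325 and 1482 bp. All 6 pairs in the stretch, the 3 members included, were wider untreated, and cover was 32.5 and 15.7 kb (untreated first). Near Dab2, an endocytic adaptor gene, 3 members lay 226446 to 280846 bp from the gene with cover of 16.1 and 3.26 kb. At Mpp7, a cell polarity gene on chromosome 18, cover was 11.2 and 4.84 kb. At Foxp1, a forkhead transcription factor gene, it was 45.3 and 28.6 kb, at the protein kinase C gene Prkch 35.6 and 23.0 kb, and around Usp35, Kctd21 and Alg8 38.7 and 23.8 kb. The run at Klf12 went against the others, with 42.5 kb untreated and 44.9 kb post-caerulein. Only 5 of its 10 pairs were wider untreated, the 3 members included. In that case the 3 members lay among matched peaks that were mostly not wider untreated.

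By nearest gene end within 100 kb, 477 members (88.2%) were assigned to 442 genes, of which 31 had 2 or more members. Atp2b1, Itprid2, Mpp7 and Tgfbr2 had 3 each. Of the 31 genes, 29 had no mirror pair and 29 had at least 1 untreated-only peak, while 16 had a post-caerulein-only peak. Of the 58 genes with 2 or more mirror pairs, 57 had no member, 52 had a post-caerulein-only peak and 12 an untreated-only peak. The shares over all genes with pairs were not computed, so nothing is read from these counts. Itprid2, which encodes an actin-associated protein, had members of 2864 and 1087 bp, 3902 and 1338 bp, and 5769 and 1792 bp. Genes with both a member and a mirror pair numbered 16. The mirror pairs were assigned to 567 genes.

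Gene lists for pancreas and signalling held 22 members among 1039 pairs (2.12%), close to the 2.04% over all pairs, and 42 mirror pairs. The listed genes as a whole were therefore not richer in members than the genome. The 22 members lay at 18 genes. Of ductal genes, 3 of 93 pairs were members: a peak 9922 bp from Cftr, the chloride channel gene (6741 and 1249 bp, scores 1971.69 and 81.14), Onecut2, a hepatic and pancreatic transcription factor gene (8204 and 3829 bp), and Ehf, an epithelial ETS factor gene (3523 and 1648 bp). Only at Onecut2 did the post-caerulein peak keep a high score (1118.89). The ductal list had 1 mirror pair. Of acinar genes, 2 of 53 pairs were members, both at Foxp1, against 6 mirror pairs, and the list's median log2 ratio was -0.18.

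Metaplasia and progenitor genes had 4 members of 105 pairs and 3 mirror pairs. They were Sox17, Ly6a, which encodes the surface antigen Sca-1 (3884 and 1769 bp), the hyaluronan receptor gene Cd44 (3368 and 1380 bp), and a peak 32625 bp from the pancreatic regulator Pdx1 (3598 and 1700 bp). EGFR and MAPK genes had 3 members of 117 pairs and 6 mirror pairs. Among them was a peak 92456 bp from the ligand gene Btc (3745 and 1601 bp). Wnt and Hippo genes had 3 of 89, at the repressor gene Tcf7l1 (5986 and 1722 bp) and, with 2 members, at Wwtr1, which encodes the coactivator TAZ (3514 and 1192 bp, 2072 and 756 bp). TGF-beta and BMP genes had 3 of 76, all at the receptor gene Tgfbr2 described above, and 2 mirror pairs. In each of these lists members and mirror pairs differed by at most 3.

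The junction and polarity list had 1 of 83, at Ctnnd1, the p120 catenin gene (6329 and 1243 bp), the NF-kB list 1 of 84, at Nfkb2 (2984 and 1276 bp), and the interferon list 1 of 64, at Oasl2, with 4 mirror pairs. The matrix and mesenchymal transition list had 1 of 57, at Cd44, and the endothelial list 1 of 22, 79828 bp from Kdr (6977 and 1331 bp). No member was assigned to AP-1 and immediate early genes (0 of 52 pairs), cell cycle genes (0 of 52), unfolded protein response genes (0 of 43), housekeeping genes (0 of 39), mesenchymal markers (0 of 12), endocrine markers (0 of 9) or immune markers (0 of 9). Read against the 2.04% over all pairs, lists of 9 to 52 pairs are too small for a count of 0 to set them apart.

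Members were found on every autosome. Their share of 1-to-1 pairs ran from 0.942% on chromosome 17 (11 of 1168) to 3.49% on chromosome 18 (30 of 860).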

How the data were processed

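Chromatin of 3 spheroid libraries was sequenced, and the peak list of each of the 2 H3K27ac libraries was used. Per the submitters' processing notes the tools were Trimmomatic 0.38, Bowtie2 2.2.6, SAMtools and MACS 1.4 on GRCm38 (mm10). The control library and options of the caller are not given in the sources used here. The deposited lists give a position, a peak name and a score that no header defines. Peaks were called per library, with 1 list for each. The authors' deposited score was used only to rank peaks within its own list, in which values pile up at 3100. Sequencing depth is unknown.

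Width is end minus start. Lists were matched by overlap in Python 3.11.15 with numpy 2.4.6 and pandas 2.3.3; bedtools 2.31.1 gave the same 26529 pairs and 541 members, and the matching was tested on simulated data. Genes came from RefSeq on GRCm38.p6 as gene extents, without exons, introns or untranslated regions; starts and strands came from its promoter table, which does not cover all genes. Cover in flanks used a log2 ratio with a pseudocount of 1 kb. Shares carry exact (Clopper-Pearson) 95% intervals from scipy 1.17.1. With 1 library per condition no p-value was computed.

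The members, the 18 gene lists (456 annotated genes; 1 further symbol is not in the annotation) and the rules were chosen with earlier results of these data known. Runs, flanks, peak gaps, peak extents at starts, the motifs and the loci drawn were chosen after seeing the data. The rule for named genes passes over predicted genes and takes the 10 members with the largest width difference, the 10 with the highest untreated score, the 8 with the largest ratio where both scores reach their list's median, the 10 with the largest difference where a gene end lies outside the post-caerulein peak, genes with 3 or more members, up to 4 members per gene list, and the 3 pairs on each side of the limit. Other genes, such as those of runs and start sites, were named after their values were seen. The alternatives changed the ratio limit, score, overlap, merging, distances and chromosomes. Some members that the rule names are not reported here.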

Additional observations from a re-analysis of the deposited data

How the results depend on the processing

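No paired analysis was possible because the 2 conditions have 1 library each, so none could be left out. Of 100 values under alternatives for the main counts and shares, 57 stayed within the margin set for them and 43 moved. A reversal was not among the outcomes recorded for these values. Of 96 checks of named members (24 members, 4 settings), 88 gave a single pair with a ratio of at least 2. In the other 8 the member was no longer a 1-to-1 pair: both Cystm1 members, Arrdc4, Tgfbr2, Mtus1 and Lims2 after merging, and Gclc and Tbx1 with equal numbers of highest-scored peaks. The overlap and equal-number settings leave the widths of a member unchanged, and division by the median ratio of 0.981 only raises its ratio. Only merging could have brought a ratio below 2, so the 88 say little about robustness. With a ratio limit of 1.5 there were 1495 members (5.64% of pairs) and 2297 mirror pairs, a median difference of 1467 bp, gene ends at 16.3%, untreated-only and post-caerulein-only neighbours at 30.4% and 6.49%, 60 members with a gene end left outside and 79 at listed genes. With a limit of 3 there were 127 members (0.479%) and 123 mirror pairs, close in number, with 3610 bp, 17.3%, untreated-only neighbours at 48.0%, 9 gene ends and 6 at listed genes. With both scores at or above the list median there were 48 members (0.353%) and 77 mirror pairs, with the added width on 1 side in 54.2%, a median difference of 3798 bp, gene ends at 29.2%, neighbours at 47.9% and 2.08%, 2 gene ends outside and 2 at listed genes. With a difference of at least 2 kb there were 323 members (1.22%) and 480 mirror pairs, gene ends at 16.1% and 13 at listed genes. Merging peaks within 1 kb gave a share of 2.57%, 57.4% on 1 side, gene ends at 20.8%, untreated-only neighbours at 23.2% and 42 gene ends outside, and 366 of the 541 members (67.7%) kept their peaks. Gene ends within 2.5 kb were at 19.2%, neighbours within 50 kb at 63.8% and 25.1%, and the added width lay to 95% on 1 side in 18.5%; an assignment limit of 10 kb left 9 members at listed genes, and 13 gene ends were at least 1 kb outside. Shares of all pairs with gene ends or one-list neighbours were not computed under these alternatives. Beyond the settings that select or merge peaks by construction, the cause of these moves was not tested. The depth is unknown, and its part in the widths was not tested. Without the 2 members above 20 kb of difference, an alternative chosen after seeing the data, the median difference was 2254 bp.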
